A study of Homo sapiens with 6 samples.

Results

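VCAM1, EMCN, ADGRF5, THSD1, PDGFRB, NOTCH3, MFSD2A and AFAP1L1, 8 genes known from blood vessels and the mural cells around them, were followed through 6 libraries of human breast cancer cells recovered from mouse brain. These 8 were chosen by name out of the 1161 genes of the deposited table, and they were chosen on their read counts in the same dormant and proliferating libraries described here, so their levels are a description and carry no test. VCAM1, EMCN, ADGRF5, THSD1, PDGFRB and NOTCH3 were higher in the dormant libraries, and MFSD2A and AFAP1L1 were higher in the proliferating libraries. All 8 had no overlap between the populations, but so did 1152 of the 1161 listed genes (99.2%), because the table holds only genes that the study called between these populations.

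The cells were MDA-MB-231, a human triple negative breast adenocarcinoma line, tagged with GFP and labelled before injection with CellVue Claret (CV), a membrane dye that is diluted at each division. C.B-17 SCID mice of 6 to 8 weeks, a strain without functional T and B cells, received them through the internal carotid artery, and the cells were sorted from the dissociated brains at day 28. Both populations thus share the cell line, the tag, the dye, the host and the day. Cells that kept the dye (GFP+CV+) are called dormant and cells that lost it (GFP+CV-) proliferating, with 3 libraries each, and every library pooled the cells of 9 or 10 mice. The 3 replicate numbers stand for 3 separate experiments with 1 cell line, so the spread between libraries covers mouse pools and library preparation but not different tumors. The sum of the listed genes' estimated counts was 7978660 to 17928800 per library. Between 8 and 25 listed genes had 0 counts in a proliferating library against 115 to 127 in a dormant library. The paper reports that GFP+CV+ cells were only a small share of all isolated GFP+ cells. Whether the number of cells bears on the counts of 0 was not tested.

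Brain vessels are lined by endothelial cells, which carry adhesion molecules, sialomucins and transporters on their surface, and are wrapped by pericytes and smooth muscle cells, together called mural cells. Endothelial cells recruit mural cells by secreting PDGF-B, which binds PDGFRβ on the mural cell, and Notch ligands on endothelium engage NOTCH3 on mural cells. In the brain, the endothelium also forms the blood-brain barrier, whose low transcytosis depends on the lipid transporter MFSD2A. Several of these genes are known in other cells as well, and VCAM1 and PDGFRB are made by fibroblasts.

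The name of the gene group was checked against the defining markers of these cells. None of the endothelial markers PECAM1, CDH5, CLDN5, KDR, TEK, TIE1 and VWF and none of the mural markers RGS5, CSPG4, ACTA2, KCNJ8, ABCC9 and DES is in the table, so none of them was analysed here. Of 64 endothelial genes in a list written for this work 14 were listed, and of 39 pericyte and vascular smooth muscle genes 4 were listed. The group is therefore named for what its genes are known for elsewhere, and the listed values do not show that either population contained vascular cells.

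The stretches in front of 4 of the genes are shown because these genes stand for the different patterns below: VCAM1 and EMCN for raised surface molecules, PDGFRB for raised mural receptors and AFAP1L1 for the lowered genes. Each is the 250 bases before the RefSeq transcription start (GRCh38.p14), written 5′ to 3′ on the gene's strand. Capitals mark matches to the motifs searched. The EMCN stretch lies inside the gene span given below, which is from GENCODE and begins farther upstream than the RefSeq start. The same holds for the stretch searched for THSD1.
VCAM1, chr1:100719492-100719741, plus strand: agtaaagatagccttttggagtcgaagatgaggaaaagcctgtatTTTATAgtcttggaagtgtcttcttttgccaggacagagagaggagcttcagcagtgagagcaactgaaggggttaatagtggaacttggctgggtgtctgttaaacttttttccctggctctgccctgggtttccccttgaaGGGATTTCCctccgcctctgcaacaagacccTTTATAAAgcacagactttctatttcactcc
EMCN, chr4:100518023-100518272, minus strand: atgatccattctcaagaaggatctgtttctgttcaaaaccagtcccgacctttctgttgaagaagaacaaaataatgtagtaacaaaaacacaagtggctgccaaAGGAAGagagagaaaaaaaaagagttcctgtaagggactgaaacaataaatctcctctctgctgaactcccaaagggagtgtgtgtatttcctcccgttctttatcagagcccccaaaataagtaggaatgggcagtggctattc
PDGFRB, chr5:150155846-150156095, minus strand: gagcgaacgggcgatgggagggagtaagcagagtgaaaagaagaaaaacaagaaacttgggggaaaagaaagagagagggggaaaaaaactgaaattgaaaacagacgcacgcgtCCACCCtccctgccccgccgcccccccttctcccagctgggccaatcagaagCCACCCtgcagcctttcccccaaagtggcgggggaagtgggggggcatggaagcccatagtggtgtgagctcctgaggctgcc
AFAP1L1, chr5:149271609-149271858, plus strand: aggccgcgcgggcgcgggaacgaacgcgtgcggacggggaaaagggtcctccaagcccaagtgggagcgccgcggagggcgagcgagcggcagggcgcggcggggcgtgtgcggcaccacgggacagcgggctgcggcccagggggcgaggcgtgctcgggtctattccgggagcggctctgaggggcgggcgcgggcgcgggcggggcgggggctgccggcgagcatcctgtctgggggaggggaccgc
The motifs searched, 7 in number, were sought on both strands of 300-base windows that also hold the first 50 bases after the start. They were AGGAAG of ETS factors, AGATAA of GATA factors, GGGNNTTCC of NF-kB type, TGGGAA of RBPJ type, CCACCC of KLF type, TGANTCA of AP-1 type and the TATA box TATAAA. VCAM1, whose induction by NF-kB is well known, holds GGGATTTCC 62 bases before the start, and 6.58% of 35116 RefSeq windows hold such a match. The VCAM1 window also has a TATA box 29 bases before the start, which overlaps a match on the other strand, and 11.5% of windows have one. EMCN holds 1 AGGAAG match, 145 bases before the start, which 33.6% of windows also do. PDGFRB holds CCACCC at 135 and 83 bases before the start and NOTCH3 holds it at 116 and 109 bases on the opposite strand, a motif found in 34.3% of windows. ADGRF5 has 2 windows, which hold between them AGATAA and matches to AGGAAG and TGGGAA. The windows of MFSD2A, AFAP1L1 and THSD1 hold none of the letters searched, and no member window holds TGANTCA. In base composition the AFAP1L1 window is 79.3% G or C with 47 CpG, NOTCH3 78.3% with 37, THSD1 75% with 33 and MFSD2A 72% with 35, whereas VCAM1 (48.3%) and EMCN (42.3%) have 5 and 2 CpG, against medians of 58.7% and 14 over all windows. PDGFRB is at 59.3% with 11 CpG, and the windows of ADGRF5 are at 53% and 48.3% with 4 and 7.

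VCAM1 (ENSG00000162692.11, chr1:100719742-100739045, plus strand, GRCh38) encodes an immunoglobulin-type adhesion molecule that binds the integrin α4β1 of leukocytes. Its normalized read count, the read count divided by 1 size factor per library, was 556, 411 and 804 in proliferating replicates 1, 2 and 3 and 1258, 2706 and 9276 in dormant replicates 1, 2 and 3. The lowest dormant library lay 1.56 times above the highest proliferating one, and dormant replicate 3 stood far above the other dormant libraries. The means were 590 ± 199 and 4413 ± 4273 (SD, n = 3 each), and the fitted log2 fold change of dormant over proliferating cells was 2.90 ± 0.72 (SE, edgeR). Without dormant replicate 3 the log2 fold change was 1.75. Within the 3 experiments the dormant library was 2.26, 6.59 and 11.5 times the proliferating library from the same mice.

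EMCN (ENSG00000164035.9, chr4:100395341-100880126, minus strand) encodes endomucin, a sialomucin of venous and capillary endothelium that limits leukocyte adhesion. Its normalized read count was 1.45, 71.2 and 19.5 in the proliferating libraries and 530, 362 and 1370 in the dormant libraries, in order of replicate. Proliferating replicate 1 had only 2 reads of EMCN, whereas proliferating replicate 2 had 66. The lowest dormant library was 5.09 times the highest proliferating one. The log2 fold change was 4.63 ± 1.29 (SE), and it was 5.55 with the replicate block, 6.16 without proliferating replicate 2 and 3.87 without dormant replicate 3. The ratio of dormant to proliferating libraries was 365, 5.09 and 70.3 in experiments 1, 2 and 3, a spread that came mostly from the proliferating libraries.

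ADGRF5 (ENSG00000069122.18, chr6:46852522-46954943, minus strand) encodes GPR116, an adhesion G protein-coupled receptor of endothelium and lung epithelium. It had 2476, 4291 and 3392 normalized read counts in the proliferating and 6361, 10216 and 7948 in the dormant libraries. The populations did not overlap, with the nearest libraries 1.48 times apart. Within a population the highest library was 1.73 times the lowest in the proliferating and 1.61 times in the dormant cells. The log2 fold change was 1.27 ± 0.26 (SE), the smallest of the 6 raised genes, and leaving out each library in turn gave 1.08 to 1.48. The experiments gave near-equal ratios of 2.57, 2.38 and 2.34, which no other of the 6 raised genes did.

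THSD1 (ENSG00000136114.16, chr13:52377167-52416373, minus strand) encodes a transmembrane protein with a thrombospondin type 1 domain that takes part in the attachment of endothelial cells. Its normalized read count was 748, 325 and 280 in the proliferating and 1142, 1321 and 3839 in the dormant libraries. Proliferating replicate 1 was the highest of its population and lay closest to the dormant range, 1.53 times below dormant replicate 1. The log2 fold change was 2.22 ± 0.62 (SE), and 1.45 without dormant replicate 3. The ratios within experiments 1, 2 and 3 were 1.53, 4.07 and 13.7, smallest in experiment 1 and largest in experiment 3 as for VCAM1. THSD1 overlaps VPS36 on the same strand and has a pseudogene copy, THSD1P1, on chromosome 13, and 2 of its 6 counts were fractional. The study counted reads that map to several places, so part of its reads may come from the copy.

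Of the mural receptors, PDGFRB (ENSG00000113721.13, chr5:150113839-150155872, minus strand) encodes PDGFRβ, the receptor for PDGF-B and PDGF-D. Its normalized read count was 466, 285 and 277 in the proliferating and 2556, 4425 and 4755 in the dormant libraries. No dormant library came within 5.48 times of a proliferating one, and the means were 343 ± 107 and 3912 ± 1186 (SD, n = 3 each). The log2 fold change was 3.51 ± 0.37 (SE), it was 3.51 with the replicate block, and leaving out each library moved it only from 3.35 to 3.80. The ratios within experiments were 5.48, 15.5 and 17.2.

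NOTCH3 (ENSG00000074181.8, chr19:15159038-15200995, minus strand) encodes the Notch receptor of mural cells, which is needed for arterial smooth muscle and is mutated in the small vessel disease CADASIL. It had 1.45, 38.8 and 2.44 normalized read counts in the proliferating libraries, from 2, 36 and 3 reads, and 323, 434 and 698 in the dormant libraries. Most proliferating reads of NOTCH3 thus came from replicate 2, the same library in which proliferating EMCN was highest. The nearest libraries were 8.33 times apart and the log2 fold change was 5.11 ± 1.34 (SE). It was 6.36 with the replicate block and 7.89 without proliferating replicate 2. The ratios within experiments were 223, 11.2 and 286.

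The other 2 genes were lower in the dormant libraries. MFSD2A (ENSG00000168389.17, chr1:39955112-39969968, plus strand) encodes the transporter that carries lysophosphatidylcholine with docosahexaenoic acid into the brain. Its normalized read count was 667, 791 and 71.5 in the proliferating libraries and 1.90, 0 and 0 in the dormant libraries. Proliferating replicate 3 was about an order of magnitude below the other proliferating libraries but still 37.6 times above the highest dormant one. The dormant libraries held 2 reads together against 1742 in the proliferating libraries, a depth-adjusted ratio of 694 with a 95% counting interval of 192 to 5733. The fitted log2 fold change was -9.30 ± 1.54 (SE). It was -12.08 without dormant replicate 1, the only dormant library with reads of MFSD2A. By limma it depended on the constant added before taking log2, at -7.89 with 1 added and -5.06 with 10 added.

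AFAP1L1 (ENSG00000157510.13, chr5:149271859-149343637, plus strand) encodes an actin filament-associated adaptor of the AFAP family. Its normalized read count was 471, 319 and 251 in the proliferating libraries and 0, 1.92 and 2.76 in the dormant libraries. The proliferating libraries were close to each other, and the lowest was 90.9 times the highest dormant library. The dormant libraries held 4 reads against 1255, a depth-adjusted ratio of 250 with a 95% interval of 97.4 to 918 for counting error only, since reads amplified by PCR without molecular identifiers are not independent molecules. The log2 fold change was -7.77 ± 1.06 (SE), -7.16 without dormant replicate 1 and -4.91 by limma with 10 added.

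**Figure D1:**
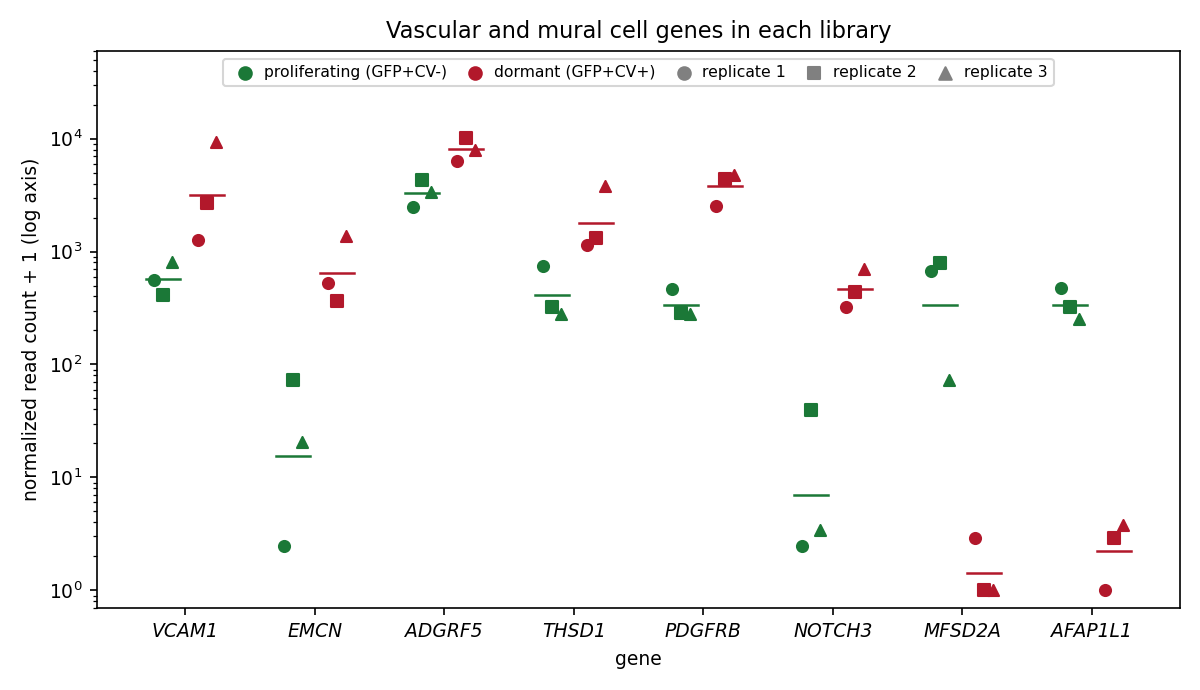
Normalized read count plus 1 on a log axis for each gene, with 1 point per library (green, proliferating GFP+CV-; red, dormant GFP+CV+; circle, square and triangle, replicates 1, 2 and 3) and a bar at the mean of the log values. The 6 genes on the left lie higher in every dormant library, and MFSD2A and AFAP1L1 hold at most 2.76 normalized read counts in any dormant library.

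Against all 1161 listed genes, where 576 (49.6%) were called higher by edgeR and 1157 (99.7%) were called in either direction at an adjusted p of 0.05, nothing can be read from the calls of the 8 genes, all of which passed. The share of higher genes among those called was 49.8% with the study's size factors, 37.2% with median ratio factors over the listed genes and 60.8% with equal totals, and the 8 genes kept their direction under each. By the count of no overlap, 6 genes were higher and 2 were lower, against 569 (49.0%) and 583 (50.2%) of the listed genes. By size, 6 genes were at least 2-fold higher and 2 at least 2-fold lower in the fit, against 497 (42.8%) and 275 (23.7%) of the listed genes. Ranked by log2 fold change from the highest, NOTCH3 stood at 42, EMCN at 48, PDGFRB at 81, VCAM1 at 106, THSD1 at 170 and ADGRF5 at 402 of 1161. Ranked from the lowest, MFSD2A stood at 38 and AFAP1L1 at 87.

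**Figure D2:**
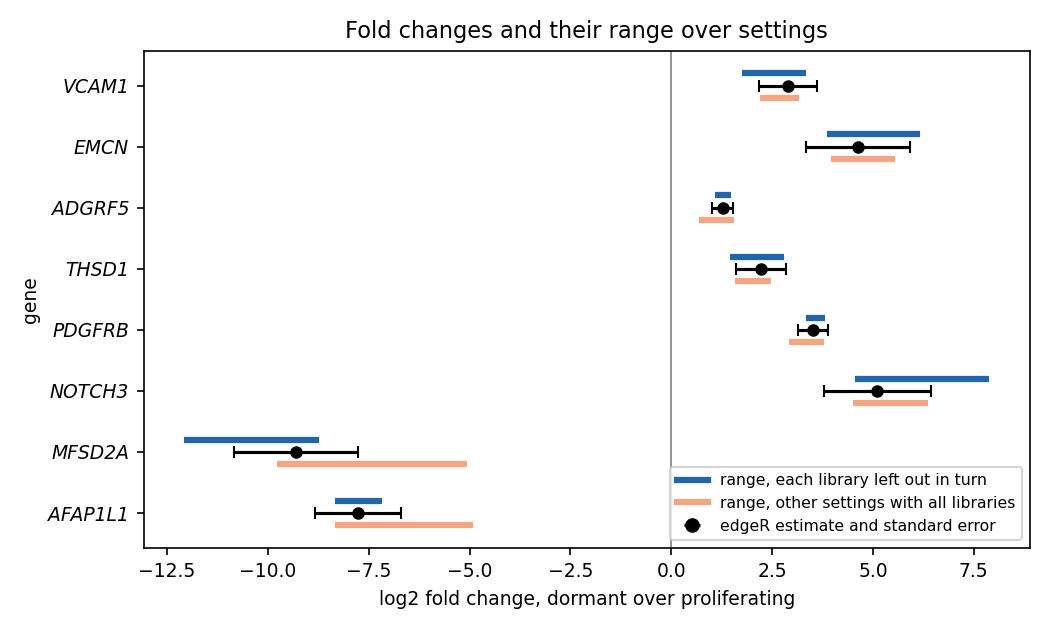
Log2 fold change of dormant over proliferating libraries for each gene, with the edgeR estimate and its standard error (black), the range when each library was left out in turn (blue) and the range over the other settings with all libraries (orange). No range crosses 0, the ADGRF5 ranges lie between 0.69 and 1.55, and the NOTCH3 and MFSD2A ranges are wide.

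Levels can be set beside each other only per length, so the normalized read count was divided by the kilobases of annotated exon of each gene. In the dormant libraries ADGRF5 was highest at 1238 ± 294 per kilobase (SD, n = 3), followed by VCAM1 at 730 ± 706, THSD1 at 567 ± 407 and PDGFRB at 548 ± 166, and each of these neighbours overlapped in range. EMCN at 146 ± 104 and NOTCH3 at 51.5 ± 20.4 followed, separated from PDGFRB but not from each other. In the proliferating libraries ADGRF5 was again highest at 513 ± 138 and did not overlap the next gene. MFSD2A (127 ± 96.0), THSD1 (122 ± 69.8), VCAM1 (97.6 ± 32.9), AFAP1L1 (52.9 ± 17.1) and PDGFRB (48.0 ± 15) followed, each overlapping its neighbours among these 5. EMCN (5.94 ± 7.0) and NOTCH3 (1.51 ± 2.26) came last, overlapping each other but not PDGFRB. In dormant replicate 3 VCAM1, at 1533 per kilobase, was above ADGRF5, at 1204.

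The spread within a population is given as a description, since the genes were chosen on these same libraries. With 1 added to each normalized read count before taking log2, dormant replicate 3 lay 1.55 above the population mean for VCAM1, 1.10 for EMCN, 1.10 for THSD1, 0.60 for NOTCH3 and 0.33 for PDGFRB. Dormant replicate 3 was the highest library for 5 of the 6 raised genes, all but ADGRF5, and also for 378 of the 576 listed genes with a higher dormant level (65.6%), so the genes did not stand out from the listed genes in this. Dormant replicate 1 lay below the mean for all 6, by 1.33 for VCAM1 and 0.27 for EMCN. Among the proliferating libraries, replicate 2 lay above the mean by 2.23 for EMCN and 2.52 for NOTCH3, and replicate 1 lay above it by 0.87 for THSD1 and 0.49 for PDGFRB. MFSD2A was 2.22 below its mean in proliferating replicate 3, and AFAP1L1 only 0.42 below.

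**Figure D3:**
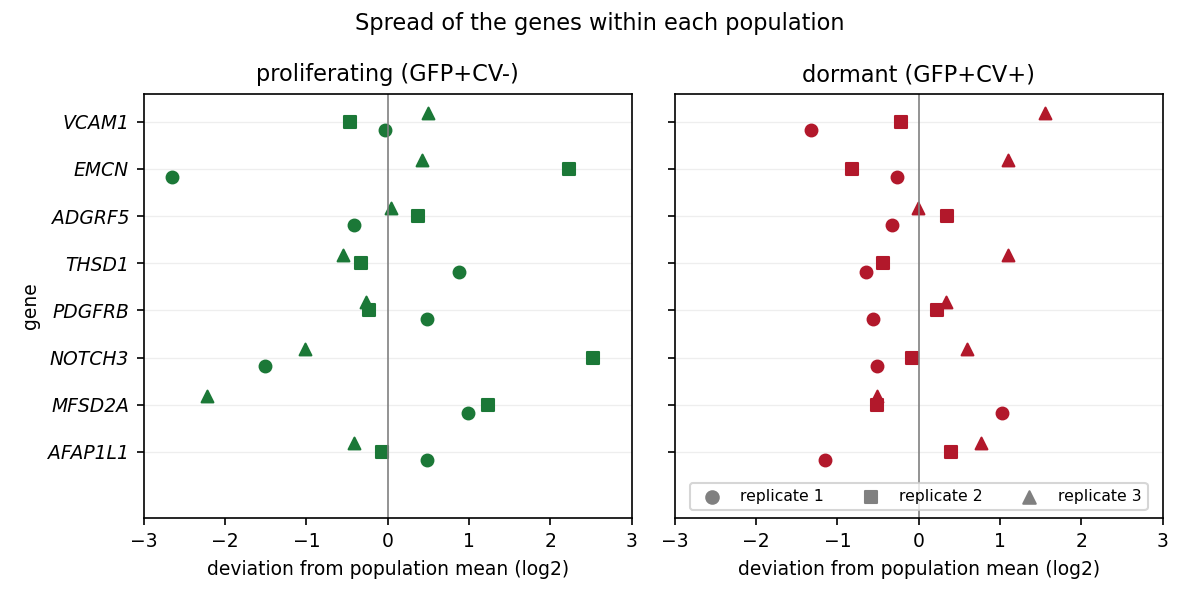
Deviation of each library from the mean of its population, as log2(normalized read count + 1), for each gene (left, proliferating; right, dormant; circle, square and triangle, replicates 1, 2 and 3). Dormant replicate 3 lies to the right for VCAM1, EMCN and THSD1, and EMCN and NOTCH3 are spread most among the proliferating libraries.

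The listed genes whose profile over the 6 libraries lay nearest to the mean profile of the 6 raised genes, by Euclidean distance of centred log2 values, were GDF15, a stress-induced cytokine (distance 0.58), the long non-coding RNA AL359694.2 (0.63), COL1A1, a chain of type I collagen (1.01), USP35, a deubiquitinase (1.01), and FBXW7, a ubiquitin ligase subunit (1.14). GDF15 had 410, 628 and 539 normalized read counts in the proliferating and 3263, 4304 and 8167 in the dormant libraries. Nearest to the mean of MFSD2A and AFAP1L1 were LINC01561 (0.74), NAP1L3 (1.11), ADGRE1 (1.28), LINC01693 (1.39) and AC105277.1 (1.49), each with 0 counts in all 3 dormant libraries. Among the 8 genes themselves VCAM1 and THSD1 were nearest to each other (1.68), as were EMCN and NOTCH3 (2.23), whereas MFSD2A and AFAP1L1 lay farther apart (3.60).

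In position, PDGFRB and AFAP1L1 lie 770 kb apart on chromosome 5 and differed in opposite directions. The 8 genes lie on 6 chromosomes, and no pair but PDGFRB and AFAP1L1 lies within 1 Mb. Antisense long non-coding RNAs overlap ADGRF5, AFAP1L1 and EMCN, and since the counting is not stated to use strand their reads cannot be told apart. Of the 48 member counts 7 were fractional, 4 of them in ADGRF5, which has the pseudogene copies ADGRF5P1 and ADGRF5P2 on chromosome 9.

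Around VCAM1, EMCN, ADGRF5 and THSD1, 9 other endothelial genes were listed, of which 5 were higher and 4 lower in dormant cells, all past the edgeR threshold as nearly all listed genes were. PALD1, a phosphatase-like protein of endothelium, had 178, 10.8 and 91.0 normalized read counts in the proliferating and 1084, 3785 and 1294 in the dormant libraries (log2 fold change 4.45 ± 1.01, SE). LAMA4, the laminin chain of endothelial basement membrane, had a log2 fold change of 4.45 ± 1.14, ETS1, an ETS transcription factor, 1.56 ± 0.32, PODXL, podocalyxin, 1.34 ± 0.19 and ARHGAP29 0.80 ± 0.13. CAV1, the coat protein of caveolae, which is also on the barrier and breast cancer line lists, was lower at -0.77 ± 0.18. Also lower were the water channel AQP1 (-1.24 ± 0.25), the protein C receptor PROCR (-1.33 ± 0.29) and EXOC3L1, which had 0 counts in all 3 dormant libraries. Of all 1161 listed genes 576 (49.6%) were called higher, so the 5 of these 9 lie near the share of all listed genes. The median log2 fold change of the 9 was 0.80, which is the value of ARHGAP29, the least raised of the 5. Over all listed genes the median was -0.33, and nothing is read from the difference between these medians.

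Beside PDGFRB and NOTCH3, 2 other genes of the pericyte and smooth muscle list were listed, and both were higher in the dormant libraries. PPP1R14A, the smooth muscle phosphatase inhibitor CPI-17, had 1.45, 2.16 and 0 normalized read counts in the proliferating and 47.5, 65.3 and 347 in the dormant libraries. Its populations did not overlap, and dormant replicate 3 was the highest library, as for PDGFRB and NOTCH3.

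Of the Notch pathway, 6 of 45 genes were listed. JAG1, a ligand that engages NOTCH3, was at 9306, 7516 and 7726 in the proliferating and 13160, 11673 and 17325 in the dormant libraries (log2 fold change 0.78 ± 0.18, SE). The ligand DLL1 was lower, at 366, 86.3 and 48.8 against 0.95, 0 and 0. MIB1, a ubiquitin ligase for Notch ligands, was at 1.11 ± 0.36, DVL3 at 0.99 ± 0.26 and HDAC1, a subunit of corepressor complexes, at -0.80 ± 0.13. Its target genes HES1, HEY1, HEY2 and HEYL are absent from the table used, and no value is given for them.

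Of the PDGF list, 4 of 27 genes were listed, and none of the ligands PDGFA, PDGFB, PDGFC and PDGFD, which were not analysed here. PIK3R2, a regulatory subunit of the lipid kinase that PDGF receptors activate, was at 2.07 ± 0.61 (log2 fold change, SE). The scaffolds SLC9A3R1 (NHERF1) and SLC9A3R2 (NHERF2), which bind the tail of PDGFRβ, were lower at -1.16 ± 0.30 and -0.82 ± 0.18. Of these, SLC9A3R2 had 9063, 7245 and 8723 normalized read counts in the proliferating and 4844, 5427 and 3886 in the dormant libraries, without overlap.

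Of the adhesion list, 7 of 27 genes were listed. Beside VCAM1 and EMCN, ALCAM, the ligand of CD6, was higher at 1.56 ± 0.30 (log2 fold change, SE). ITGB2, the β2 integrin chain of leukocytes, was lower and had 1026, 1281 and 184 normalized read counts in the proliferating and 2.85, 24 and 5.53 in the dormant libraries. MADCAM1, an adhesion molecule of gut vessels, was at 61.6, 38.8 and 31.7 against 0, 0.96 and 0. The α4 integrin gene ITGA4, whose product binds VCAM1, and ICAM1 and SELE are not among the listed genes.

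Of the blood-brain barrier list, 5 of 34 genes were listed. With MFSD2A, the drug efflux pump ABCG2 was lower, at 181, 188 and 166 normalized read counts in the proliferating and 0, 0 and 2.76 in the dormant libraries. The metal transporter SLC39A8 (1.35 ± 0.32, log2 fold change and SE) and the amino acid transporter SLC1A5 (1.03 ± 0.18) were higher. Transport genes thus differed in both directions, and MFSD2A had the lowest value of the 5.

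Markers of other brain and stromal cells moved in the same comparison, and their part in the values above was not tested. Of all 1161 listed genes 576 (49.6%) were called higher, and nothing is read from the counts by direction that follow. Of 21 fibroblast markers 10 were listed, 8 higher and 2 lower. Their summed normalized read count was 12482 to 16378 in the proliferating and 56423 to 88527 in the dormant libraries. Most of the dormant sum was COL3A1, named after its values were seen, and COL1A1, with dormant means of 30094 and 25555. BGN (8.88 ± 0.40, log2 fold change and SE), LUM (8.66 ± 1.21), DCN (8.25 ± 1.67) and MFAP4 (5.28 ± 1.03), all extracellular matrix genes, were the farthest apart, and none was at 0 in every library of a population. Of 22 astrocyte markers 9 were listed, 7 higher and 2 lower, with APOE at 8.72 ± 1.33 and BCAN at -6.60 ± 1.24. Their sum was lower in dormant (79149 to 129720) than in proliferating libraries (144770 to 163890). Most of that sum was CST3, named after its values were seen, with a mean of 154960 in proliferating and 75450 in dormant libraries. Of 25 microglia and macrophage markers 7 were listed, 2 higher and 5 lower. CD4 was higher at 6.35 ± 0.49, whereas ADGRE1 was at 0 in all dormant libraries. The sums were 68909 to 130060 in the proliferating and 45300 to 56583 in the dormant libraries. Most of these sums was CD74, also named after its values were seen, with means of 76522 and 39379. Of 21 oligodendrocyte and neuron markers 5 were listed, 1 higher and 4 lower, with CSPG5 and GRIN2B at 0 in all dormant libraries, and sums of 11964 to 14822 against 9701 to 11475. The 9 listed of 19 genes of the breast cancer line were all lower in dormant cells, with sums of 586480 to 680730 against 341930 to 407320, and the keratin KRT81 was the farthest apart at 12998, 6283 and 8660 normalized read counts in the proliferating and 2384, 1586 and 2339 in the dormant libraries. The study aligned reads to joined human and mouse genomes and removed those assigned to mouse, and in bulk libraries fewer cells of a type and less RNA per cell cannot be told apart.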

How the data were processed

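The authors prepared full-length cDNA by Smart-seq2, cleaned the read pairs with Cutadapt, mapped them by STAR to joined human (GRCh38.p12) and mouse (GRCm38.p6) assemblies with GENCODE annotation, counted them with Rsubread, multi-mapping reads included, and discarded mouse reads. The table they deposited holds 1161 genes that they called between the populations with DESeq2. It was deposited with the authors' estimated counts, which carry no normalization and of which 43.2% to 49.6% per library are fractional. The normalized read counts, a signal value made by the authors, are the rounded counts divided by 1 size factor per library (0.724 to 1.38). Columns of the authors' own comparison (fold changes, test statistics, p-values) were not used.

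Counts were rounded and fitted with edgeR 4.0.16 (R 4.3.3) by quasi-likelihood, with the authors' size factors, population as the only term and all 6 libraries. P-values were adjusted by Benjamini-Hochberg over the 1161 listed genes with a threshold of 0.05, and are used only as background. DESeq2 1.42.0 and limma 3.58.1 (log2 of the normalized read count plus 1 or 10) were alternatives, and the fits were tested on simulated counts. Replicate numbers pair the populations because each number marks 1 pool of mice that gave both; deviations from the population means correlated at 0.057, -0.018 and 0.0012 in pairs 1, 2 and 3, and an alternative fit had this number as a block. Libraries of a population differed from each other beyond sampling noise. Gene models and exon lengths are from GENCODE release 44, matched by identifier for 1157 listed genes, and promoter windows, found for all 8 genes, from RefSeq. Python 3.11.15 with pandas 2.3.3 and matplotlib 3.10.9 made tables and plots.

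The 8 genes and the 11 gene lists were chosen with earlier results of these data known. The genes named are the 8, any listed gene of the endothelial, mural, barrier, Notch, PDGF and adhesion lists, up to 4 genes with the largest absolute log2 fold change of each other list, and the 5 listed genes nearest in profile to the raised and to the lowered genes. Values of some listed genes are not reported here.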

Additional observations from a re-analysis of the deposited data

How the results depend on the processing

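Under every refit, the 6 raised genes stayed above and the 2 lowered genes below 0 in log2 fold change. The lack of overlap was recounted on counts without normalization and with equal totals, and held for all 8 in both. No such recount was made over all listed genes. With the study's size factors 1152 of the 1161 (99.2%) had no overlap, so nothing particular to the 8 can be read from the recount. Of the fold changes recomputed under an alternative, 113 differed from the value given by less than the gene's SD between libraries of a population on the log2 scale and 7 by more. The log2 fold change moved to 1.75 for VCAM1 without dormant replicate 3, to 7.89 for NOTCH3 without proliferating replicate 2 and to -12.08 for MFSD2A without dormant replicate 1. With median ratio factors over the listed genes, which shifted all genes by -0.59 on the log2 scale, it was 0.69 for ADGRF5 and 2.93 for PDGFRB. By limma with 10 added it was -5.06 for MFSD2A and -4.91 for AFAP1L1, since the added constant is larger than their dormant values. TMM factors and equal totals shifted all genes by -0.04 and 0.29. With the replicate block, which uses the pairing by mouse pool, edgeR called 1097 of the listed genes against 1157 without it, and the log2 fold changes of VCAM1, ADGRF5, THSD1, MFSD2A and AFAP1L1 were 2.49, 1.28, 2.13, -9.51 and -7.79. Leaving out each library in turn left 1089 to 1135 genes called. All listed genes passed the filter of 10 counts in 3 libraries. Genes outside the table, including the defining endothelial and mural markers, were not analysed here, and the dispersion was estimated from genes selected for a difference. Low counts limit MFSD2A and AFAP1L1 in the dormant and EMCN and NOTCH3 in the proliferating libraries.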

Other observations

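Among whole counts from 1 to 50 over the listed genes, 64.2% to 87.9% per library were even numbers. Of the 8 such counts that EMCN, NOTCH3, MFSD2A and AFAP1L1 had, 7 were even, the exception being the 3 reads of NOTCH3 in proliferating replicate 3. The counting intervals given for MFSD2A and AFAP1L1 treat each read as separate, and whether the counts hold both ends of a fragment was not tested.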
